A study of Mus musculus with 32 samples.

Results

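The 7 genes described here (Zfp783, Dmc1, Mtmr7, Cyp4v3, C1qtnf6, Galnt7 and Gramd3) were picked because their RNA level differed widely between Prdm16-knockout and wild-type MLL-AF9 leukaemia cells, with no overlap between the replicates. They were chosen by their read counts, scaled to the library total, in the knockout and wild-type leukaemia libraries that carry an empty vector. They are 7 of the 25284 gene names found in any of the 4 count tables of the series, and each of the 7 is present in every table. Since the difference between knockout and wild-type leukaemia cells chose them, that difference is given here as a description, with no test. The tests below concern the comparisons that the choice did not use: the 2 add-back groups against each other, and knockout against wild-type haematopoietic stem cells (HSCs).

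The leukaemia cells were mouse cells driven by MLL-AF9, the fusion of the MLL histone methyltransferase with AF9, and they were sorted from mice that had become moribund. All 4 leukaemia groups carried MLL-AF9. The first was Prdm16 knockout with s-PRDM16 put back (KO+s). The second was knockout with f-PRDM16 put back (KO+f). The third was knockout with the empty vector (KO+EV), and the last was wild type for Prdm16 with the empty vector (WT+EV), with 3 libraries in each. The HSCs were sorted as Lin-cKit+Sca1+CD48- cells, in 3 tables with their own wild types. Adult bone marrow gave 4 libraries labelled KO and 4 labelled WT. Fetal liver gave 3 KO and 3 WT libraries of a total knockout. It also gave 3 KO and 3 WT libraries of a knockout (47bp in its label) that lacks f-PRDM16 and keeps s-PRDM16. The bone marrow and total-knockout fetal libraries, KO and WT, carry VAV in their column names, which the labels do not explain. Ages, the Cre driver and the origin of each leukaemia replicate (its own transduction or mouse) are not given in the sources used here, so p-values measure the spread between these libraries.

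PRDM16 is a zinc finger transcriptional regulator of the PR domain family that HSCs need for their maintenance. The gene makes a full-length protein, f-PRDM16, which carries the PR domain, and a short one, s-PRDM16, which lacks it. Its close relative MECOM (EVI1) has a like layout of zinc fingers. The 7 genes belong to unrelated families. Zfp783 lies among zinc finger genes on chromosome 6 and is classed by RefSeq as a long noncoding RNA gene. Dmc1 encodes the recombinase that pairs homologous chromosomes in meiosis. Mtmr7 encodes a myotubularin-related phosphatase of phosphoinositides, and Cyp4v3 a cytochrome P450 that hydroxylates fatty acids. C1qtnf6 encodes a secreted protein of the C1q and TNF-related family, and Galnt7 a GalNAc transferase that acts on mucin-type glycopeptides. Gramd3 encodes a protein with a GRAM domain, a fold found in proteins at membranes.

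The promoters of 4 of the 7 genes are shown, chosen for 4 of the ways in which the add-back groups differed from KO+EV. Mtmr7 and Gramd3 had no promoter entry, and the window of Galnt7 is not printed. Zfp783 was higher with f-PRDM16 than with s-PRDM16 on average, Dmc1 was in the wild-type range with s-PRDM16, C1qtnf6 was almost without reads with s-PRDM16, and Cyp4v3 was above KO+EV with either. Each sequence is the 250 bases before the gene's start, 5′ to 3′ on the gene's own strand, from the RefSeq table of build GRCm38.p6. The windows are chr6:47942925-47943174 (plus strand), chr15:79605110-79605359 (minus strand), chr15:78529652-78529901 (minus strand) and chr8:45333164-45333413 (minus strand). Capitals mark the letters GATGAG or their reverse complement CTCATC.
Zfp783: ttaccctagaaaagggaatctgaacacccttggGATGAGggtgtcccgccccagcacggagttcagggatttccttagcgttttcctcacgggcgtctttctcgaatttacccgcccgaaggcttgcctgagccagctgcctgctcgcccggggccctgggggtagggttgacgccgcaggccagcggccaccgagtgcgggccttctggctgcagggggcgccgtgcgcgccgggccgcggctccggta
Dmc1: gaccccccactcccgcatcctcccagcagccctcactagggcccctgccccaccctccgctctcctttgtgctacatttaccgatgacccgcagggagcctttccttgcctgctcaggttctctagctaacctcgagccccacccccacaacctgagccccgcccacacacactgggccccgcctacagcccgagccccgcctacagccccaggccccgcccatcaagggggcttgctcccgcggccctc
C1qtnf6: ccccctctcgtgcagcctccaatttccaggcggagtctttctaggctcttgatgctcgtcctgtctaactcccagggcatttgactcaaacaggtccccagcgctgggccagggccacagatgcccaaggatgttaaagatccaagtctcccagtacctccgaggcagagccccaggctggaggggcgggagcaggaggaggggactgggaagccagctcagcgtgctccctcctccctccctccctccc
Cyp4v3: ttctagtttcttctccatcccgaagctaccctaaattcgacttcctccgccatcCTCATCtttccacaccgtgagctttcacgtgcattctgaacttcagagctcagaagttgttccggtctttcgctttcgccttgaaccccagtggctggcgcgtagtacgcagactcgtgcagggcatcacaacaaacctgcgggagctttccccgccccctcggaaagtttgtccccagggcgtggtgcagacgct

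Letters of both motifs known for the zinc fingers of the relative EVI1 were searched on both strands. GATGAG stood once in the window of Zfp783 and, as CTCATC, once in that of Cyp4v3. It was in 10.1% of the 32851 promoter windows of the same length. It was not in the windows of Dmc1, C1qtnf6 and Galnt7. AAGATAA and its reverse complement TTATCTT were in none of the 5 windows of these genes and in 3.10% of all windows. These are matches of letters in 1 window per gene, and no binding was measured. The windows held 66.8% G and C in Zfp783, 68.8% in Dmc1, 62.8% in C1qtnf6, 55.6% in Cyp4v3 and 73.6% in Galnt7, against a median of 52.4% over all windows.

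Depth was 16.4 to 23.8 M counts per leukaemia library, 22.5 to 29.3 in bone marrow, 26.7 to 33.2 in the total-knockout fetal table and 35.5 to 44.95 in the f-PRDM16-knockout table. Levels are in CPM, a gene's count scaled to its library's total, and their errors are SD. Prdm16 itself was at 235 ± 58.0 CPM in KO+s and 273 ± 53.5 CPM in KO+f. It was at 0.0480 ± 0.0476 CPM in KO+EV and 0.733 ± 0.305 CPM in WT+EV. These rest on 3 counts over the 3 KO+EV libraries and 40 over the 3 WT+EV libraries. By summed counts scaled to depth, Prdm16 in KO+s exceeded WT+EV by a ratio of 336. Both add-backs thus held far more Prdm16 RNA than WT+EV, and the part of this excess in the levels of the described genes was not tested. In HSCs Prdm16 was at 30.1 ± 13.5 CPM in bone marrow libraries labelled KO against 31.0 ± 18.7 CPM in WT. In total-knockout fetal libraries it was at 19.8 ± 7.78 CPM against 34.5 ± 7.80 CPM in their WT. In f-PRDM16-knockout libraries it was at 7.82 ± 1.81 CPM against 23.0 ± 10.9 CPM in their WT. The bone marrow level of Prdm16 RNA did not follow the label, and the reason was not tested. Counts are per gene and do not show which part of it was read. The leukaemia markers Ptprc, Hoxa9, Meis1, Kit and Itgam were all above 0 in every leukaemia group. The HSC markers were all above 0 in every HSC group, with Cd48 at 5.87 to 24.0 CPM in bone marrow. Each list was also above 0 in every group of the other kind of cell, so presence alone does not tell these cells apart. Library KO+EV 3 stood apart from the other KO+EV libraries, with 31238 CPM of Mpo, a myeloid granule enzyme, against 4036 and 3399 CPM in KO+EV 1 and 2. Without KO+EV 3 the log2 difference of KO+EV minus WT+EV was -5.17 for Zfp783, -3.73 for Dmc1, 3.36 for Mtmr7, 2.67 for Cyp4v3, 3.75 for C1qtnf6, 2.70 for Galnt7 and 2.39 for Gramd3.

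In leukaemia, 2 of the 7 genes were lower and 5 higher in KO+EV than in WT+EV, and their CPM did not overlap because they were picked for that. The background is that 23.2% of the 12958 genes tested did not overlap between these groups and 2.1% passed the edgeR test at an adjusted p of 0.05. By the size of the fitted change among genes that did not overlap, Zfp783 ranked 6 and Dmc1 17 of 1609 lower genes. C1qtnf6 ranked 16, Mtmr7 38, Galnt7 40, Cyp4v3 77 and Gramd3 87 of 1392 higher genes. Comparisons of an add-back with KO+EV or WT+EV share the libraries that chose the genes, so they too are given as log2 differences with their standard errors (± SE) and no p. In these bulk libraries fewer cells that make a transcript and less transcript per cell cannot be told apart.

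**Figure D1:**
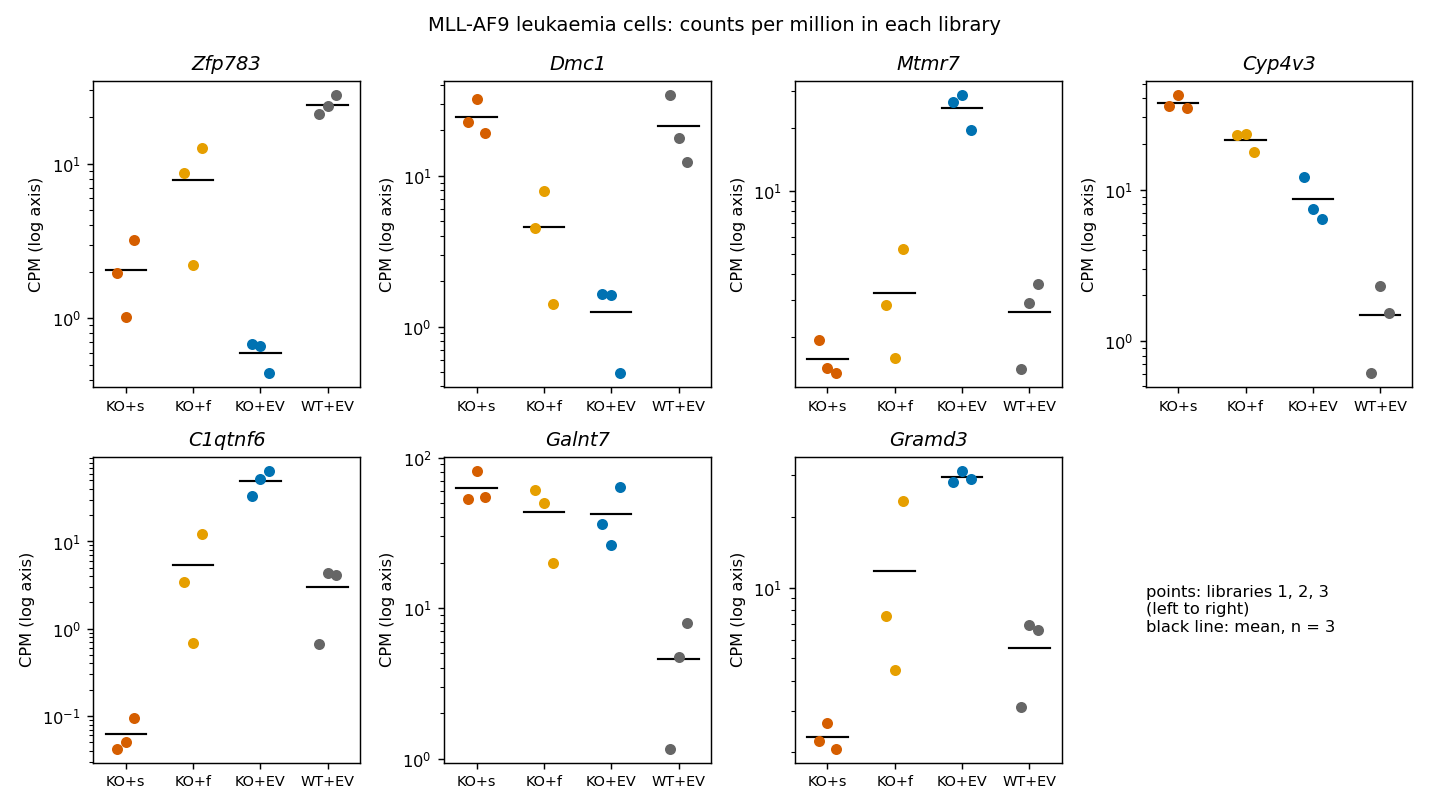
CPM of each of the 7 genes (log axis, its own range in each panel) in the 3 libraries of KO+s, KO+f, KO+EV and WT+EV; points are libraries and black lines are means. The add-back libraries lie between KO+EV and WT+EV for Zfp783, near WT+EV with s-PRDM16 for Dmc1, far below every other group with s-PRDM16 for C1qtnf6, and above KO+EV for Cyp4v3.

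Zfp783 lay closer to wild type with f-PRDM16 than with s-PRDM16, but short of it with either. Its level was 1.98, 1.02 and 3.21 CPM in the KO+s libraries and 8.77, 2.23 and 12.7 CPM in the KO+f libraries, against 0.686, 0.666 and 0.441 CPM in KO+EV and 21.1, 23.6 and 28.0 CPM in WT+EV. All 6 add-back libraries were above the KO+EV range and all 6 below the WT+EV range, while KO+s and KO+f overlapped. The fitted difference was -5.31 ± 0.64 for KO+EV minus WT+EV. The differences from KO+EV were 1.88 ± 0.60 with s-PRDM16 and 3.69 ± 0.61 with f-PRDM16. As a share of the WT+EV mean, Zfp783 stood at 8.53% in KO+s, 32.6% in KO+f and 2.47% in KO+EV. Of the KO+f libraries, 2 of 3 were nearer to WT+EV than to KO+EV on the log scale, and of the KO+s libraries 0 of 3 were.

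Dmc1 lay in the wild-type range with s-PRDM16 and below it with f-PRDM16. It was at 22.9, 32.2 and 19.2 CPM in KO+s and 4.48, 7.88 and 1.419 CPM in KO+f, against 1.64, 1.62 and 0.490 CPM in KO+EV and 34.4, 17.8 and 12.4 CPM in WT+EV. All 3 KO+s libraries lay inside the WT+EV range, and 0 of 3 KO+f libraries did. KO+f 3 lay inside the KO+EV range. The difference was -4.08 ± 0.64 for KO+EV minus WT+EV, 4.41 ± 0.64 for KO+s minus KO+EV and 1.86 ± 0.61 for KO+f minus KO+EV. KO+s averaged 115% of the WT+EV mean and KO+f 21.4%, or 13.7% without KO+f 2.

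Among the 5 genes that were higher without Prdm16, Mtmr7 was near its wild-type level with either form. It was at 1.93, 1.424 and 1.34 CPM in KO+s and 2.86, 1.59 and 5.26 CPM in KO+f, against 26.8, 28.8 and 19.6 CPM in KO+EV and 1.41, 2.92 and 3.58 CPM in WT+EV. Every add-back library was nearer to WT+EV than to KO+EV, and 2 of 3 lay inside the WT+EV range in each add-back group. KO+EV minus WT+EV was 3.25 ± 0.44. The differences from KO+EV were -3.89 ± 0.46 for KO+s and -2.97 ± 0.43 for KO+f. The difference from WT+EV was -0.65 ± 0.43 for KO+s and 0.28 ± 0.42 for KO+f, and the KO+f value turned to -0.26 without KO+f 3 and to -0.01 without WT+EV 1.

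C1qtnf6 was far below KO+EV with either form, and had almost no reads with s-PRDM16. The KO+s libraries held 1, 1 and 2 counts, or 0.0420, 0.0509 and 0.0959 CPM. KO+f had 3.40, 0.694 and 12.2 CPM, against 32.8, 52.0 and 64.7 CPM in KO+EV and 0.673, 4.32 and 4.15 CPM in WT+EV. The 3 KO+s libraries were below every WT+EV library. Of the KO+f libraries, 2 were inside the WT+EV range and KO+f 3 was above it. By summed counts KO+EV exceeded KO+s by a ratio of 808 (95% counting interval 315 to 2969) and WT+EV exceeded KO+s by 51.5 (19.8 to 191). Intervals here cover counting error only. KO+EV minus WT+EV was 4.05 ± 0.88. The difference for KO+f was -3.24 ± 0.84 from KO+EV and 0.80 ± 0.81 from WT+EV, and the difference from WT+EV turned to -0.59 without KO+f 3.

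Gramd3 showed the same order at a smaller size. It was at 2.23, 2.64 and 2.06 CPM in KO+s and 7.59, 4.46 and 23.3 CPM in KO+f, against 28.1, 31.4 and 29.1 CPM in KO+EV and 3.12, 6.92 and 6.63 CPM in WT+EV. All KO+s libraries were below the WT+EV range. All KO+f libraries were below the KO+EV range, with 1 inside and 2 above the WT+EV range. KO+s averaged 41.6% of the WT+EV mean and KO+f 212%, where KO+EV averaged 531%. Without KO+f 3 the KO+f mean was 108% of the WT+EV mean, and the log2 difference of KO+f minus WT+EV was 0.11. KO+EV minus WT+EV was 2.42 ± 0.52. KO+f minus KO+EV was -1.36 ± 0.49, and -2.31 without KO+f 3, while KO+s minus KO+EV was -3.59 ± 0.55.

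Cyp4v3 was higher without Prdm16 and higher still with either form put back. It was at 35.5, 42.2 and 34.5 CPM in KO+s and 23.1, 23.2 and 17.8 CPM in KO+f, against 12.04, 7.47 and 6.42 CPM in KO+EV and 0.611, 2.29 and 1.53 CPM in WT+EV. The 4 groups did not overlap. The difference from WT+EV was 4.75 ± 0.39 for KO+s, 3.82 ± 0.38 for KO+f and 2.54 ± 0.37 for KO+EV. The KO+s mean was 2534% of the WT+EV mean.

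Galnt7 was higher in all 3 knockout groups than in WT+EV, and no add-back library was in the WT+EV range. It was at 53.1, 81.8 and 54.5 CPM in KO+s, 60.5, 49.7 and 20.003 CPM in KO+f and 36.1, 26.1 and 63.4 CPM in KO+EV, against 1.16, 4.74 and 7.92 CPM in WT+EV. The KO+s and the KO+f libraries each overlapped KO+EV. The difference from WT+EV was 3.86 ± 0.65 for KO+s, 3.21 ± 0.63 for KO+f and 3.21 ± 0.63 for KO+EV. KO+f minus KO+EV was 0.00 ± 0.56, and between -0.33 and 0.50 when single libraries were left out.

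Against KO+EV, 6 of the 7 genes did not overlap in KO+s, where 51.1% of all genes tested did not, and 5 of 7 in KO+f, where 34% did not. Single libraries recurred among these values. WT+EV 1 was the lowest of its group for all 5 genes that were higher in KO+EV. KO+f 3 was the highest of its group for Zfp783, Mtmr7, C1qtnf6 and Gramd3 and the lowest for Dmc1, Cyp4v3 and Galnt7, and KO+f 2 was the lowest for Zfp783, Mtmr7, C1qtnf6 and Gramd3. Markers of other myeloid cells were read beside these levels. The 10 granulocyte genes summed to 22089 to 24523 CPM in KO+s, 10844 to 15487 CPM in KO+f, 10241 to 50404 CPM in KO+EV and 8457 to 16055 CPM in WT+EV. Of 8 monocyte and macrophage genes 7 were in the table, and they summed to 1515 to 2633 CPM in KO+s, 513 to 907 CPM in KO+f, 319 to 373 CPM in KO+EV and 396 to 651 CPM in WT+EV. None of these genes was at 0 in any group. The 6 mast cell and basophil genes summed to 28.9 to 44.96 CPM in KO+s, 45.4 to 70.7 CPM in KO+f, 97.3 to 331 CPM in KO+EV and 42.01 to 107 CPM in WT+EV, with Fcer1a at 0 in every group and Cma1 at 0 in all but WT+EV. The 5 megakaryocyte genes, none at 0, summed to 29.5 to 56.8 CPM in KO+s, 19.2 to 41.9 CPM in KO+f, 1.62 to 10.9 CPM in KO+EV and 3.80 to 6.30 CPM in WT+EV. Erythroid, B and T cell and hepatocyte genes summed to at most 6.95, 1.41 and 21.8 CPM in any leukaemia library. The part of these cells in the levels of the 7 genes was not tested.

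Did the 2 forms of PRDM16 differ in what they did to these genes? The comparison of KO+s with KO+f sets against each other no library that chose them, with 3 libraries a side. Its spread was estimated over all 12 leukaemia libraries, however, and these include the KO+EV and WT+EV libraries that chose the genes. The fit of the 6 add-back libraries alone is given below. Of the 7 genes, 3 passed the edgeR quasi-likelihood test, where 3.81% of the 12958 genes tested did. Dmc1 was higher in KO+s than in KO+f, by 2.55 ± 0.58 on the log2 scale or 5.84-fold (adjusted p = 0.0375). C1qtnf6 was lower in KO+s, by a fitted -6.20 ± 1.29 (adjusted p = 0.0300), with 4 counts over the 3 KO+s libraries against 349 over the 3 KO+f libraries. Scaled to depth, KO+f exceeded KO+s in C1qtnf6 by a ratio of 90.05 (95% counting interval 34.9 to 332), but 266 of the 349 counts were in KO+f 3. Without that library the ratio was 32.98 (12.4 to 124) and the fitted difference -4.81. Gramd3 was also lower in KO+s, at -2.23 ± 0.53 (adjusted p = 0.0409).

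The other 4 genes did not pass. Zfp783 stood at -1.81 ± 0.54 (edgeR adjusted p = 0.0787, 95% interval -2.99 to -0.63) and Mtmr7 at -0.93 ± 0.43 (0.229, -1.87 to 0.01). Cyp4v3 stood at 0.92 ± 0.32 (edgeR adjusted p = 0.120, 95% interval 0.22 to 1.63) and Galnt7 at 0.65 ± 0.56 (0.532, -0.59 to 1.90). The intervals include differences of more than 1 on the log2 scale for each of these 4 genes. CPM did not overlap between KO+s and KO+f for Dmc1, Cyp4v3, C1qtnf6 and Gramd3, 4 of 7, against 33.6% of all genes tested.

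The 3 calls were not kept in every fit with a single library left out. Each such fit has a smaller group and called fewer of all genes tested. Over these fits the difference was 2.11 to 3.18 for Dmc1, -6.73 to -4.81 for C1qtnf6 and -2.63 to -1.27 for Gramd3. Without KO+s 1, KO+s 2, KO+s 3 or KO+f 3 none of the 7 passed in edgeR: the adjusted p was then 0.115, 0.0750, 0.101 and 0.0899 for Dmc1, 0.126, 0.0706, 0.115 and 0.0925 for C1qtnf6, and 0.151, 0.0795, 0.150 and 0.116 for Gramd3, whose difference was -1.27 without KO+f 3. Without KO+f 1, Dmc1 did not pass (0.0815), and without KO+f 2 Zfp783 passed too (-2.25, adjusted p = 0.0187). With no filter on low counts 0 of 7 passed, at edgeR adjusted p of 0.0638 for Dmc1, 0.0712 for C1qtnf6 and 0.0588 for Gramd3. With DESeq2 5 of 7 did, adding Zfp783 (0.0111) and Cyp4v3 (0.0326). With the 6 libraries fitted alone Cyp4v3 passed (0.0190) and Gramd3 did not (0.0676). The direction was the same for all 7 genes in each of these fits.

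**Figure D2:**
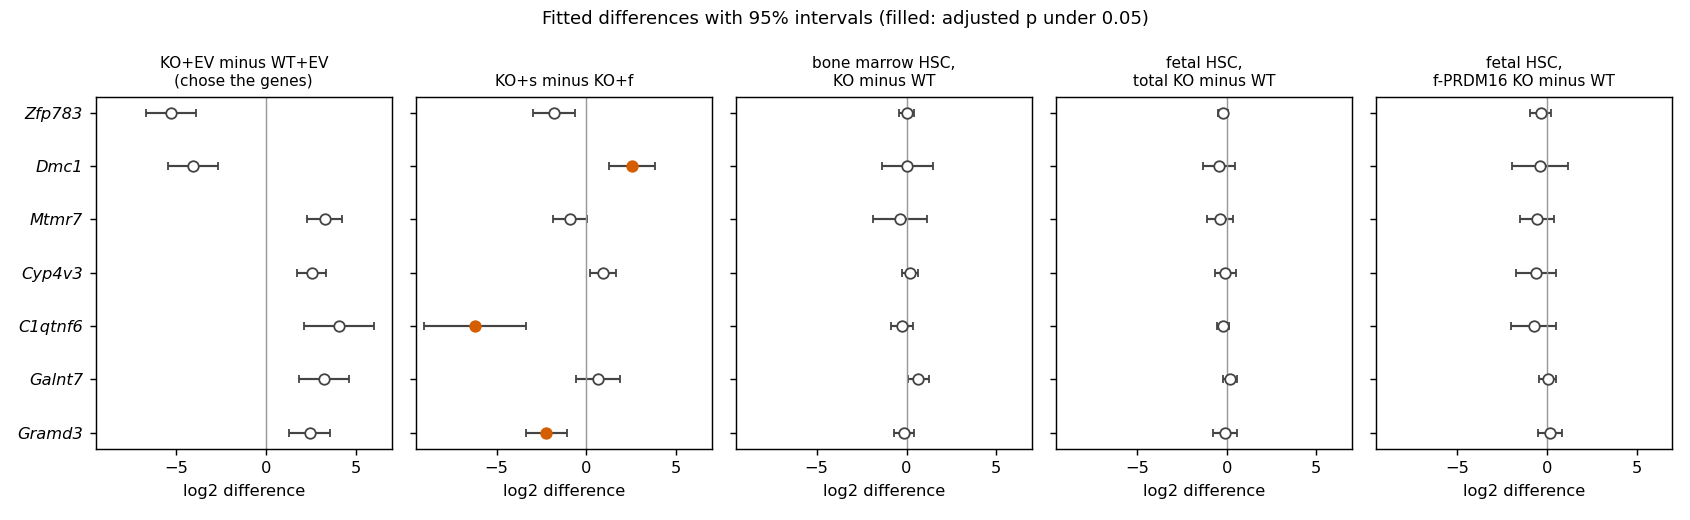
Fitted log2 differences of the 7 genes with 95% intervals in 5 comparisons; filled points have an adjusted p under 0.05 and the first panel, which chose the genes, carries no test. The 3 filled points are Dmc1 at 2.55, C1qtnf6 at -6.20 and Gramd3 at -2.23 in KO+s minus KO+f, and none of the HSC points is filled.

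In HSCs the 7 genes were read in knockout against wild-type cells of 3 kinds, and none passed the edgeR test. In bone marrow and in both fetal comparisons 0 of 7 passed, as did 0% of all genes tested. Over all genes, edgeR called 0 in each table, with 1141, 739 and 357 at an unadjusted p under 0.05 in bone marrow, the total knockout and the f-PRDM16 knockout, and DESeq2 called 86, 70 and 4. With the replicate number as a block, the total knockout had 1.13% of genes called and 0 of the 7, with edgeR adjusted p down to 0.162 for Galnt7 (0.22 ± 0.06) and 0.168 for Mtmr7 (-0.33 ± 0.09). For the other 5 genes it lay between 0.460 and 0.935. The blocked fit of the f-PRDM16 knockout called 0 genes, with C1qtnf6 at -0.74 ± 0.21 (edgeR adjusted p = 0.314), Cyp4v3 at -0.58 ± 0.18 (0.318) and the other 5 genes at adjusted p of 0.462 to 0.890. By CPM, Zfp783, Mtmr7 and C1qtnf6 were lower in the knockout in 3 of 3 same-numbered pairs of each fetal table, and Cyp4v3 in 3 of 3 pairs of the f-PRDM16 knockout. Galnt7 was higher in the knockout in 3 of 3 pairs of the total knockout. Between KO+EV and WT+EV, Zfp783 and Galnt7 went in these same directions, while Mtmr7, C1qtnf6 and Cyp4v3 went the opposite way. How many of all genes kept the same direction in 3 of 3 pairs was not counted, so these counts have no background.

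Zfp783 was well expressed in every HSC group, and knockout and wild-type levels were close. In bone marrow it was at 46.0, 43.3, 32.8 and 38.8 CPM in libraries labelled KO, against 49.4, 46.0, 32.5 and 31.9 CPM in WT (0.01 ± 0.20, edgeR adjusted p = 0.987). In the total knockout it was at 24.9, 24.7 and 21.2 CPM, against 26.9, 29.0 and 26.5 CPM in WT (-0.18 ± 0.12, adjusted p = 1.00). In the f-PRDM16 knockout it was at 16.7, 21.0 and 20.3 CPM, against 19.1, 36.6 and 22.5 CPM in WT (-0.33 ± 0.25, adjusted p = 0.999). The lowest bound of the 95% intervals in these tables was -0.93, while the leukaemia value was -5.31 ± 0.64. The difference between the leukaemia and HSC values was not tested, because the tables come from different library preparations.

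Dmc1 was low in HSCs of either genotype. It averaged 1.62 ± 0.616 CPM in bone marrow libraries labelled KO against 1.58 ± 1.02 CPM in WT, 2.61 ± 0.689 CPM in total-knockout libraries against 3.66 ± 1.65 CPM in their WT, and 1.70 ± 1.19 CPM in f-PRDM16-knockout libraries against 2.34 ± 0.787 CPM in their WT. Each pair of groups overlapped. The largest of its 3 edgeR differences was -0.44 ± 0.38 (adjusted p = 1.00), and the 95% intervals reached from -1.91 to 1.46.

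Galnt7 had the smallest unadjusted p of the 7 genes in HSCs. It was at 64.1, 48.6, 46.0 and 50.7 CPM in bone marrow libraries labelled KO, against 41.8, 17.1, 41.8 and 31.7 CPM in WT. All 4 libraries labelled KO were above all 4 WT libraries, which held for 1 of the 7 genes and for 5.82% of all genes tested. The difference was 0.66 ± 0.26 with a 95% interval of 0.10 to 1.23. Its edgeR adjusted p was 0.547, against 0.0249 before adjustment. It was 0.21 ± 0.17 in the total knockout and 0.06 ± 0.20 in the f-PRDM16 knockout (edgeR adjusted p = 1.00 and 0.999).

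C1qtnf6 was lower on average in knockout HSCs and did not pass the test. In the total knockout it was at 15.7, 12.6 and 13.7 CPM, against 16.3, 16.4 and 16.8 CPM in WT, with no overlap (-0.20 ± 0.15, edgeR adjusted p = 1.00). Zfp783 also did not overlap there, so 2 of 7 genes did not, against 11% of all genes tested. In the f-PRDM16 knockout C1qtnf6 was at 5.25, 15.7 and 6.88 CPM, against 7.41, 23.9 and 17.8 CPM in WT (-0.73 ± 0.52, edgeR adjusted p = 0.999). There 0 of 7 genes were free of overlap, against 7.31% of all genes tested. In bone marrow C1qtnf6 averaged 17.9 ± 4.29 CPM in libraries labelled KO against 21.1 ± 6.71 CPM in WT (-0.25 ± 0.27, adjusted p = 0.783).

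Cyp4v3 was at 70.3, 64.5, 85.3 and 66.1 CPM in bone marrow libraries labelled KO, against 73.3, 37.8, 69.8 and 67.2 CPM in WT (0.21 ± 0.21, edgeR adjusted p = 0.770). In the fetal tables it averaged 7.22 ± 0.747 CPM in total-knockout libraries against 7.89 ± 2.14 CPM in their WT (-0.09 ± 0.25, edgeR adjusted p = 1.00), and 8.81 ± 3.67 CPM in f-PRDM16-knockout libraries against 14.4 ± 6.99 CPM in their WT (-0.60 ± 0.47, edgeR adjusted p = 0.999). Gramd3 averaged 15.5 ± 4.46 CPM in bone marrow libraries labelled KO against 17.0 ± 3.86 CPM in WT, 11.8 ± 2.71 CPM in total-knockout libraries against 12.9 ± 4.15 CPM in their WT, and 16.9 ± 4.60 CPM in f-PRDM16-knockout libraries against 15.7 ± 3.01 CPM in their WT. Its 3 differences lay between -0.13 ± 0.26 and 0.19 ± 0.27 (edgeR adjusted p = 0.889 and 0.999). For both genes KO and WT libraries overlapped within each table.

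**Figure D3:**
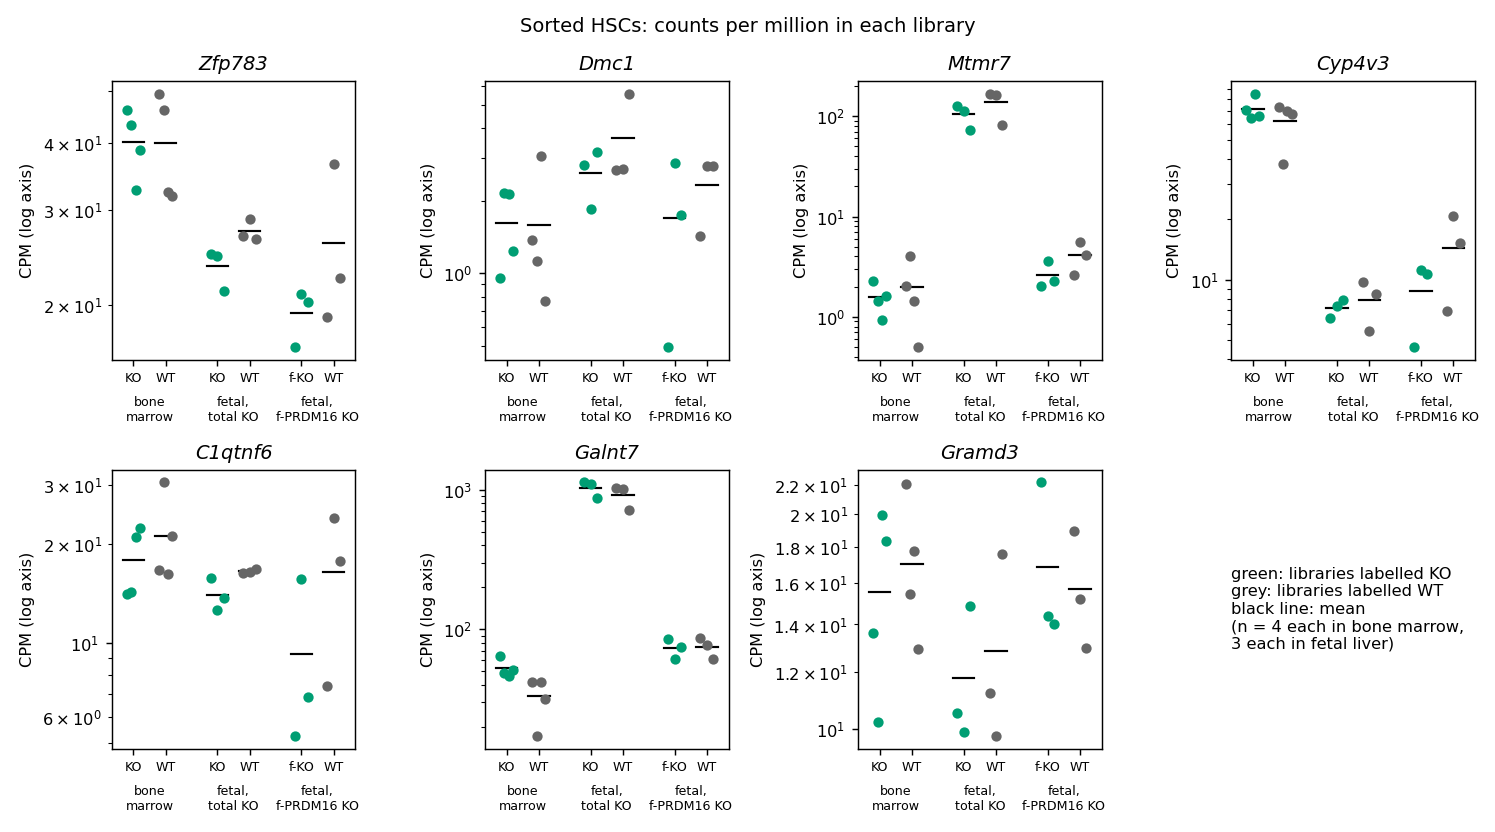
CPM of each of the 7 genes (log axis, its own range in each panel) in the HSC libraries labelled KO (green) and WT (grey) of the bone marrow, total-knockout and f-PRDM16-knockout tables; black lines are means of 4 or 3 libraries. Libraries labelled KO and WT overlap in most panels, the exceptions being Galnt7 in bone marrow and Zfp783 and C1qtnf6 in the total knockout, and Mtmr7 and Galnt7 sit far higher in the total-knockout table than in the others.

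Mtmr7 levels lay farther apart between tables than between genotypes, though the tables were prepared and scaled separately and no test was made across them. It was at 126, 113 and 73.5 CPM in total-knockout fetal HSCs, against 168, 163 and 82.2 CPM in their WT (-0.37 ± 0.31, edgeR adjusted p = 1.00). It averaged 1.57 ± 0.562 CPM in bone marrow libraries labelled KO against 2.00 ± 1.49 CPM in WT (-0.34 ± 0.69, edgeR adjusted p = 0.891), and 2.64 ± 0.860 CPM in f-PRDM16-knockout libraries against 4.12 ± 1.51 CPM in their WT (-0.55 ± 0.41, edgeR adjusted p = 0.999). Galnt7 likewise averaged 1033 ± 144 CPM in the total knockout against 916 ± 174 CPM in WT, and 73.3 ± 12.3 CPM in the f-PRDM16 knockout against 74.9 ± 12.8 CPM in its WT. The total-knockout table differed in its makeup: genes with Gm-numbered names held 9.25 to 10.3% of each library, against 0.378% at most in the other tables, and Cdkn2d alone held 5.37 to 5.74%. Vps37a, which overlaps Mtmr7 on the other strand, was at 24.9 to 33.2 CPM in knockout and 31.6 to 41.1 CPM in WT libraries of that table. The part of the table's makeup in these levels was not tested.

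Markers of HSCs and of other cells were read beside the HSC levels too. The 6 HSC genes summed to 717 to 810 CPM in the total knockout against 862 to 1200 CPM in WT, with no overlap. They summed to 656 to 974 CPM in f-PRDM16-knockout libraries against 846 to 1608 CPM in their WT, and to 2065 to 2459 CPM in bone marrow libraries labelled KO against 1350 to 2463 CPM in WT. The 10 granulocyte genes summed to 719 to 12680 CPM in the total knockout against 162 to 1725 CPM in WT. In f-PRDM16-knockout libraries these granulocyte genes summed to 7263 to 45455 CPM against 3327 to 20482 CPM in their WT. In bone marrow they summed to 363 to 1644 CPM in libraries labelled KO against 544 to 694 CPM in WT. The 7 monocyte and macrophage genes summed to 374 to 1020 CPM in the total knockout against 265 to 396 CPM in WT, to 828 to 2846 CPM in f-PRDM16-knockout libraries against 424 to 1567 CPM in their WT, and to 431 to 681 CPM in bone marrow libraries labelled KO against 443 to 523 CPM in WT. The 6 mast cell and basophil genes summed to 246 to 400 CPM in the total knockout against 104 to 277 CPM in WT, to 346 to 686 CPM in f-PRDM16-knockout libraries against 113 to 454 CPM in their WT, and to 7.03 to 58.3 CPM in bone marrow libraries labelled KO against 21.9 to 39.6 CPM in WT. None of these genes was at 0 in any HSC group. Cd48, against which the cells were sorted, was at 54.99 to 181 CPM in f-PRDM16-knockout libraries and 23.1 to 162 CPM in WT. In the total-knockout table it was at 21.8 to 31.1 CPM in KO and 12.8 to 18.0 CPM in WT, with no overlap. There erythroid genes summed to 1169 to 1825 CPM in KO and 1562 to 1868 CPM in WT. Hepatocyte genes summed there to 9.61 to 197 CPM in KO and 11.9 to 180 CPM in WT. In the f-PRDM16-knockout table erythroid genes, Hbb-b1 and Hba-a1 at 0, summed to 8.51 to 38.9 CPM in KO and 10.8 to 26.3 CPM in WT. The part of all these cells in the levels of the 7 genes was not tested.

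Overlapping genes may share reads with 5 of the 7, and the strand and annotation used in counting were not given. Of the overlapping genes named here, Zfp956, Vps37a and AW046200 were in the leukaemia table, and Gm45753 and Gm49490 were not. By the GENCODE annotation Zfp783 shares exons with Zfp956 on its own strand, and Cyp4v3 with Gm45753. Mtmr7 shares exons with Vps37a, C1qtnf6 with Gm49490 and Galnt7 with AW046200, each on the other strand, and such reads cannot be told apart. Zfp956 differed by -0.29 ± 0.14 (edgeR adjusted p = 0.305) and Vps37a by 0.16 ± 0.14 (0.573) in KO+EV minus WT+EV. Vps37a was higher in KO+s than in KO+f (0.73 ± 0.14, adjusted p = 0.0178), where Mtmr7 stood at -0.93 ± 0.43 and did not pass.

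Did the genes beside the 7 move with them? For each, the 3 nearest tested genes on either side were read, 42 in all, in the order of the RefSeq gene table. None of the 42 passed the edgeR test for KO+EV against WT+EV, where 2.1% of all genes tested did. There 7 of 42 differed by at least 1 on the log2 scale, as did 10.9% of all genes tested: Slc7a2 (1.34 ± 0.50) and Pdgfrl (1.43 ± 0.59) beside Mtmr7, Tlr3 (3.03 ± 0.81) and Pdlim3 (2.96 ± 1.02) beside Cyp4v3, Il2rb (2.36 ± 0.68) beside C1qtnf6, Galntl6 (1.46 ± 0.84) beside Galnt7, and Zfp608 (-1.15 ± 0.45) beside Gramd3. No neighbour of Zfp783 or Dmc1 differed by as much. Tlr3 encodes a receptor for double-stranded RNA and Il2rb a chain of the interleukin 2 receptor. Their edgeR adjusted p-values were 0.0771 and 0.0956. Counts behind these values were low: Tlr3 had 28 over the 3 KO+EV libraries against 3 over the WT+EV libraries, and Pdlim3 had 146 in KO+EV against 18 in WT+EV, with WT+EV 1 at 0 for both.

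**Figure D4:**
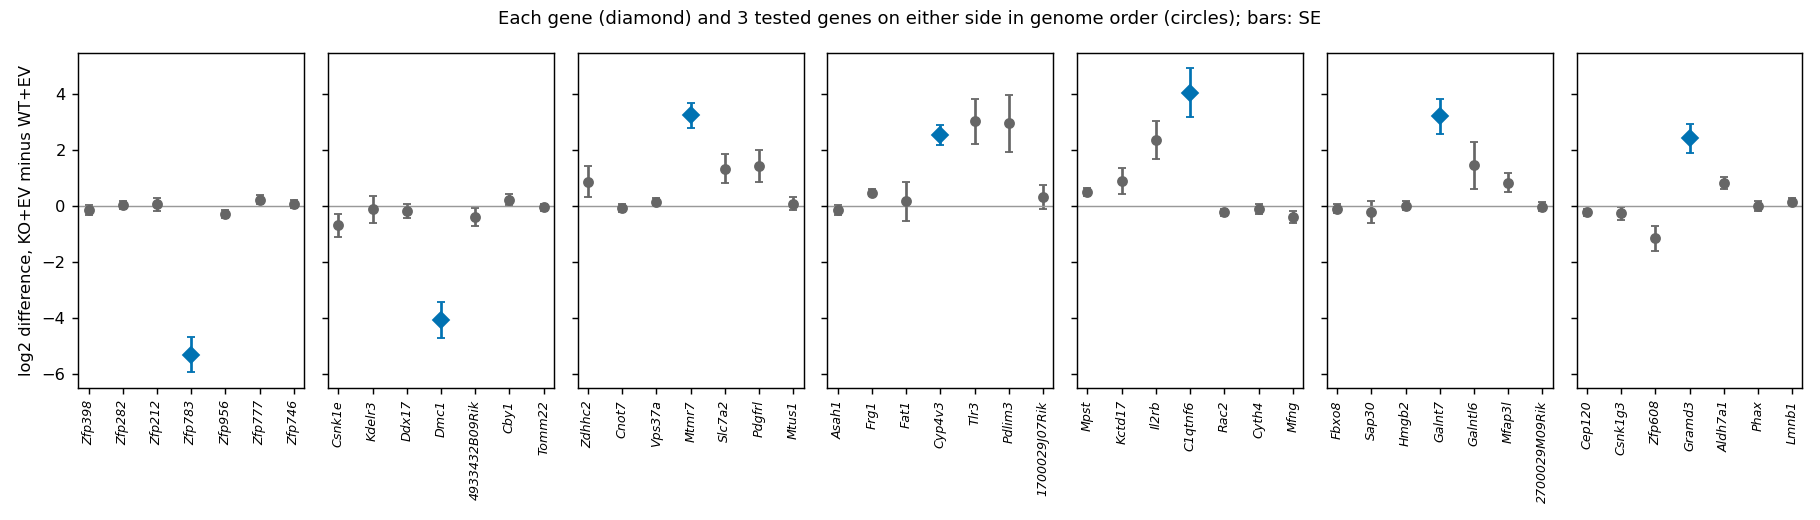
Log2 difference between KO+EV and WT+EV for each of the 7 genes (blue diamonds) and the 3 tested genes on either side in genome order (grey circles), with bars of 1 SE. The neighbours of Zfp783 and Dmc1 lie within 1 of no difference, while Tlr3 at 3.03 and Pdlim3 at 2.96 rest on 3 and 18 counts over the WT+EV libraries.

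Between the add-backs 4 of the 42 neighbours passed the edgeR test, where 3.81% of all genes tested did. Pdgfrl, which encodes a receptor-like protein, was lower in KO+s than in KO+f (-2.61 ± 0.66, adjusted p = 0.0499). Vps37a, an endosomal sorting protein, was higher, as given above. Kdelr3, which returns proteins to the endoplasmic reticulum and lies beside Dmc1, was lower in KO+s (-2.35 ± 0.54, adjusted p = 0.0377) and was, like Vps37a, chosen after its value was seen. Pdlim3 had 0 counts in the 3 KO+s libraries against 88 in the KO+f libraries (adjusted p = 0.0487).

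The relatives of the 7 genes were read from family lists, by counts of members that passed the edgeR test and by the median log2 difference. In KO+s against KO+f, 0 of 9 zinc finger cluster genes, 1 of 16 recombination and strand exchange genes, 1 of 13 myotubularins, 1 of 5 CYP4 enzymes with their reductase Por, 0 of 3 C1q and TNF-related genes, 2 of 15 O-glycan enzymes and 0 of 4 GRAM domain genes passed, where 3.81% of all genes did. The list medians were -0.28, -0.21, 0.12, -0.02, -0.57, 0.05 and -0.43 in that order, against -0.02 over all genes tested. Mnd1, a partner of the meiotic recombinase, was lower in KO+s (-1.09 ± 0.21, adjusted p = 0.0208), where Dmc1 was higher. Galnt6, a GalNAc transferase, was lower in KO+s (-1.86 ± 0.37, adjusted p = 0.0242), and St3gal1, which adds sialic acid to O-glycans, was higher (0.99 ± 0.15, adjusted p = 0.00832). Cyp4f18, another fatty acid hydroxylase, was lower (-2.51 ± 0.47, adjusted p = 0.0183), and the myotubularin Mtmr6 was higher (0.58 ± 0.13, adjusted p = 0.0310).

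In KO+EV against WT+EV, 1 of 16 recombination genes rose, Sycp3, a protein of the meiotic chromosome axis (1.79 ± 0.41, edgeR adjusted p = 0.0486). Cyp4f18 fell (-1.89 ± 0.43, adjusted p = 0.0486), as did Galnt6 (-1.68 ± 0.37, adjusted p = 0.0450), so the CYP4 and O-glycan lists had 1 called member each. No member of the other 4 lists passed. The 3 medians were 0.02, -0.31 and -0.20, against 0.00 over all genes, where 0.903% rose and 1.2% fell.

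In KO+s against KO+EV 8 of 16 recombination genes fell and 1 rose, with a median of -0.46 against -0.01 over all genes, where 16.6% fell and 15.9% rose. Among those that fell were Xrcc2, which acts in repair by homologous recombination (-0.82 ± 0.16, edgeR adjusted p = 0.00289), and Mnd1 (-0.96 ± 0.21, 0.00586). In KO+f against KO+EV 3 of 16 fell and 0 rose, with a median of -0.28, where 4.39% of all genes fell and 6.88% rose. Both comparisons share the KO+EV libraries.

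The O-glycan enzymes had 5 higher and 2 lower of 15 in KO+s against KO+EV and 2 higher and 1 lower in KO+f against KO+EV. Of all genes tested 15.9% were higher and 16.6% lower in KO+s against KO+EV, and 6.88% higher and 4.39% lower in KO+f against KO+EV. These comparisons also share KO+EV. B3gnt3, which extends O-glycan cores, was lower, at -2.78 ± 0.32 in KO+s (edgeR adjusted p = 0.00022) and at -1.52 ± 0.30 in KO+f (0.0110). Gcnt1, which branches them, was higher, at 1.61 ± 0.39 in KO+s (0.00986) and 1.86 ± 0.40 in KO+f (0.0152). Of the 13 myotubularins 4 rose and 1 fell in KO+s against KO+EV, with Mtmr6 at 0.84 ± 0.13 (edgeR adjusted p = 0.00083) and Sbf2 at -2.17 ± 0.58 (0.0164), and 0 passed in KO+f against KO+EV. In HSCs no member of any list passed in the 3 comparisons.

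Which genes had the level pattern most like each of the 7? Likeness was the root-mean-square difference of log2(CPM + 1) over the 12 leukaemia libraries, after each gene's mean was taken off, so a lower value is closer. The genes share these libraries and the values are descriptions. Nearest to Dmc1 were Mmp9 (0.685), Itgb2l (0.743) and Lilrb3 (0.845). Mmp9, a matrix protease stored in neutrophil granules, was at 259 ± 106 CPM in KO+s, 59.2 ± 18.8 CPM in KO+f, 17.9 ± 8.05 CPM in KO+EV and 124 ± 60.1 CPM in WT+EV. Mmp9 and Itgb2l are on the granulocyte list given above. The sum of that list was higher in KO+s than in KO+f, as Dmc1 was, at 22089 to 24523 CPM against 10844 to 15487 CPM. It was 10241 to 50404 CPM in KO+EV and 8457 to 16055 CPM in WT+EV, which overlapped. Mpo, also on the list, was at 3399 to 31238 CPM in KO+EV and 1005 to 1663 CPM in WT+EV. The highest KO+EV value was that of KO+EV 3 for both the sum and Mpo. The part of granulocytes in the level of Dmc1 was not tested. Nearest to Gramd3 were Pcdhgc3 (0.243), a protocadherin, Chchd10 (0.313) and Srgap1 (0.321). Pcdhgc3 was at 1.02 ± 0.366 CPM in KO+s, 5.59 ± 4.26 CPM in KO+f, 19.6 ± 3.65 CPM in KO+EV and 3.68 ± 2.38 CPM in WT+EV.

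Nearest to C1qtnf6 was F7, coagulation factor VII (0.606), at 3.94 ± 0.923 CPM in KO+s, 57.0 ± 47.6 CPM in KO+f, 158 ± 45.8 CPM in KO+EV and 20.5 ± 12.9 CPM in WT+EV. Srgap1 followed (0.771), which was also the third for Gramd3. Nearest to Mtmr7 were Pla2r1 (0.410), Tslp (0.428) and Tead1 (0.446). Tslp encodes a cytokine, and it was at 0.138 ± 0.0336 CPM in KO+s, 1.08 ± 1.01 CPM in KO+f, 7.51 ± 2.40 CPM in KO+EV and 1.61 ± 0.885 CPM in WT+EV. Nearest to Cyp4v3 were Enpp1 (0.526), Tet1 (0.585) and Nlrc5 (0.629). Tet1, an enzyme that oxidizes methylated cytosine, was at 27.5 ± 7.78 CPM in KO+s, 27.9 ± 6.97 CPM in KO+f, 5.98 ± 2.05 CPM in KO+EV and 2.49 ± 1.37 CPM in WT+EV. Enpp1 was also nearest to Galnt7 (0.710), ahead of Cyp4v3 itself (0.766). The genes nearest to Zfp783 were farther from it, namely Stfa2l1 (0.895), Rbm24 (0.999) and Tesc (1.02).

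Among the 7 themselves the closest pair was Mtmr7 and Gramd3 (0.518), followed by Cyp4v3 and Galnt7 (0.766), C1qtnf6 and Gramd3 (0.927) and Mtmr7 and C1qtnf6 (0.936). The farthest pair was Dmc1 and C1qtnf6 (3.61).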

How the data were processed

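RNA was sequenced in 32 libraries of 10 groups, and the deposited values are whole-number counts per gene, in a table each for leukaemia, bone marrow, total-knockout fetal liver and f-PRDM16-knockout fetal liver. Per the submitters' processing notes, bcl2fastq 2.17, TopHat, build mm9 and DESeq were used. How reads were counted (tool, annotation, strand) is not given in the sources used here. Per the labels' protocols, libraries were TruSeq after poly-A selection, and HSC libraries were also amplified with a SMARTer low-input kit. The 4 tables held 23284, 24043, 22803 and 24047 rows in that order. Spike-in rows were dropped, 92 in bone marrow and 92 in the f-PRDM16-knockout table, and 4 repeated names in the total-knockout table were made unique. All count columns were matched to a sample, and the 124 pairs of libraries within tables differed by more than sampling noise (chi-square over its degrees of freedom at least 12.2).

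CPM was the count over the column total. A single fit held the 12 leukaemia libraries and each HSC table had its own, with edgeR 4.0.16 (R 4.3.3, limma 3.58.1) with filterByExpr, TMM and the robust quasi-likelihood F test, two-sided, adjusted by Benjamini-Hochberg over all genes tested, with a threshold of 0.05. This left 12958, 13495, 15590 and 13631 genes, all 7 described genes among them in each table. Errors after ± are SE for log2 differences and SD for CPM. Counting intervals are exact at 95% and cover counting error only. Alternatives were DESeq2 1.42.0, RLE factors, no filter, the replicate number as a block, both groups alone and leaving out each library. The edgeR script was tested on simulated counts. Figures used Python 3.11.15 and matplotlib 3.10.9.

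The 7 genes and the family and marker lists were chosen with earlier results of these data known. Genes were named by rule: the 7 genes, Prdm16, Mpo, the 3 closest profiles per gene (Gm-numbered, Rik and sex-linked names left out), called family members with the smallest p, and neighbours differing by at least 1. Some genes of the recombination list that the rule names are counted but not reported here. In fetal liver, libraries with the same number deviated together (correlation 0.576, 0.353 and 0.738 for the total knockout, 0.698, 0.457 and 0.702 for the f-PRDM16 knockout), so the HSC text also gives the blocked fits, beside those without the block. Promoter sequences of 5 of the 7 genes were matched by symbol in the RefSeq table of GRCm38.p6, and gene order came from RefSeq genes of that build. Because the counts used mm9, no gene coordinates are printed beside them.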

Additional observations from a re-analysis of the deposited data

Results flagged for a closer look

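Effects of s-PRDM16 and f-PRDM16 differed past the threshold for 3 of the 7 genes, on the test of the difference itself. Dmc1 was higher in KO+s than in KO+f (2.55 ± 0.58, edgeR adjusted p = 0.0375), with all 3 KO+s libraries above all 3 KO+f libraries. C1qtnf6 was lower (-6.20 ± 1.29, edgeR adjusted p = 0.0300), with all 3 KO+s libraries below all 3 KO+f libraries. Gramd3 was lower as well (-2.23 ± 0.53, edgeR adjusted p = 0.0409), again with all 3 KO+s libraries below all 3 KO+f libraries. Each of these calls was lost when some single libraries were left out, as given with the comparison.

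In the 14 sets of 4 bone marrow libraries (7 genes, KO and WT), 0 had a library that stood far from the others by Dixon's test. Chance flags about 1 in 20 such sets. The groups of 3 libraries were not tested in this way.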

How the results depend on the processing

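The number of genes called in KO+s against KO+f was 494, and 1377 with DESeq2 and 37 to 388 when single libraries were left out. It was 272 in KO+EV against WT+EV, and 914 with DESeq2, 1 with both groups fitted alone and 26 to 425 without single libraries. In HSCs edgeR called 0 genes. DESeq2 called 86 in bone marrow, 70 in the total knockout and 4 in the f-PRDM16 knockout, and leaving out single bone marrow libraries gave 0 to 3. With the replicate number as a block, 176 genes were called in the total knockout, 0 in the f-PRDM16 knockout, 0 in bone marrow, 372 in KO+s against KO+f and 195 in KO+EV against WT+EV. Same-numbered libraries correlated at 0.0635, 0.312 and -0.0381 in KO+s and KO+f and at 0.0482, 0.0536 and 0.0917 in KO+EV and WT+EV, so there the block rests on a shared number alone. With the block Gramd3 no longer passed in KO+s against KO+f (edgeR adjusted p = 0.0591), and no other call of the 7 genes changed.

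Direction turned for some values close to 0 when single libraries were left out. In bone marrow the ranges were -0.085 to 0.117 for Zfp783, -0.19 to 0.56 for Dmc1, -0.67 to 0.24 for Mtmr7 and -0.27 to 0.0204 for Gramd3. In the total knockout they were -0.28 to 0.0893 for Cyp4v3 and -0.31 to 0.20 for Gramd3, and in the f-PRDM16 knockout -0.92 to 0.0663 for Dmc1, -0.0760 to 0.21 for Galnt7 and -0.0741 to 0.39 for Gramd3. For KO+f the range was -0.33 to 0.50 against KO+EV for Galnt7, and against WT+EV it was -0.26 to 0.62 for Mtmr7 and -0.59 to 1.34 for C1qtnf6. The cause was not tested. In KO+s against KO+f, KO+s against either empty-vector group and KO+EV against WT+EV, the 7 genes kept their direction in every alternative run. Counts of 1 or 2 per library limit C1qtnf6 in KO+s.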
